A study of Homo sapiens with 6 samples.

Results

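Antisense RNAs are transcripts read from the opposite strand of a named gene, and 158 of them were followed here against their sense genes in SUM159 cells that overexpress POGK. SUM159 is an established human triple-negative breast cancer cell line. POGK is a KRAB-domain protein derived from a pogo-like DNA transposon. The members were the rows of the count table named after a gene with the ending -AS and a number, leaving out HOX antisense RNAs and EPB41L4A-AS1, with at least 300 reads summed over the 6 libraries. They made up 158 of 469 rows with such an ending and 158 of 18398 rows in all. Their totals ran from 301 to 30606 reads with a median of 914.5, and the members were chosen by this sum over both groups. Since the sum depends on the change, 16 members reached the limit only through their POGK libraries, with fewer than 150 reads in control, and 9 only through their control libraries. Their changes are given as descriptions, with p-values that carry this selection, and the other 133 members would have reached it at the level of either group. The members just inside the limit were PTOV1-AS2 with 301 reads, SLC25A21-AS1 with 307 and KCTD21-AS1 with 309. The rows just outside it were PANK2-AS1 with 299, CBR3-AS1 with 297 and TIPARP-AS1 with 296. In GENCODE, 156 of the 158 are annotated as long noncoding RNAs.

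RNA depleted of ribosomal RNA was sequenced in 3 libraries of cells carrying the empty lentiviral vector pLVX, called control, and in 3 libraries of stable POGK-overexpressing cells, called POGK. The stated aim was to find genes that POGK regulates. The labels do not say whether the POGK cells are 1 clone or whether replicates are separate cultures, so the spread that p-values measure here may be only technical. POGK itself had 62.6, 77.3 and 66.9 CPM (counts scaled to TMM-adjusted library size) in control and 743, 781 and 780 in POGK libraries, with no separation of the introduced copy from the cells' own gene. Libraries held 27645789 to 33689230 counts. All 7 markers of the SUM159 lineage were present, among them VIM at 5960 ± 791 CPM in control cells (SD, n = 3), and 5 were lower and 2 higher in POGK cells. Luminal markers, 6 of 8 in the table, summed to 13.6 to 14.3 CPM in control and 8.38 to 8.77 CPM in POGK libraries. Most of that sum was GATA3, at 8.60 ± 1.10 CPM in control cells (SD, n = 3). GATA3, ERBB3 and KRT19 were lower and FOXA1 higher, and ESR1 and EPCAM were too low to be tested. Immune markers, 3 of 8 in the table, summed to 1.65 to 2.23 CPM and 2.74 to 3.34 CPM, and endothelial markers, 4 of 6, to 7.20 to 9.06 CPM and 5.50 to 6.34 CPM. The part of other cells in the results was not tested.

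Antisense transcripts arise in several arrangements. Some start next to the promoter of the sense gene and run away from it, some start inside the sense gene and run back across it, and some only brush its end. Promoter-linked antisense RNAs are often short-lived and are removed by the nuclear RNA exosome, while others are stable, spliced RNAs with known activities of their own. Antisense and sense RNA can form double strands, which DICER1, ADAR enzymes and innate sensors bind.

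Of the 158 members, 141 had a sense gene in the table under the name before -AS, and the sense genes of the other 17, 16 in number, were not analysed here. Head-to-head pairs, whose 5′ ends lie at most 1000 bases apart on opposite strands, numbered 53. Another 84 pairs overlapped with 5′ ends farther apart, and 4 lay apart. In 16 head-to-head pairs the sense gene starts upstream of the antisense RNA, so that the transcripts run away from each other.

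The start regions of 9 of these diverging pairs show how close the starts can be. They have at most 120 bases between the starts and a call in both genes, and were chosen after the values were seen. Not every chromosome was searched for such pairs. Each is read 5′ to 3′ on the antisense strand from the hg38 genome, with GENCODE 44 starts. Capitals mark the bases from the 5′ end of the sense gene to the 5′ end of the antisense RNA, with 30 bases in lower case on each side. In the first 2, EXOC3-AS1 (chr5:443130-443205, minus strand) and RNASEH1-AS1 (chr2:3558303-3558449, plus strand), antisense and sense were both higher in POGK cells. EXOC3 is a subunit of the exocyst, and RNASEH1 cuts RNA in RNA-DNA hybrids.
EXOC3-AS1: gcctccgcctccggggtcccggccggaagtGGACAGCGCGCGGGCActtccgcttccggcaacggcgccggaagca
RNASEH1-AS1: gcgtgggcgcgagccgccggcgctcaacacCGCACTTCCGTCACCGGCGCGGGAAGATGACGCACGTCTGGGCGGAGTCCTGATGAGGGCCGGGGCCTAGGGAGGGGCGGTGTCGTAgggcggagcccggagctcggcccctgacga

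In the next 5, both genes were lower. They are SCAMP1-AS1 (chr5:78360477-78360641, minus strand), SRP14-AS1 (chr15:40039151-40039272, plus strand), TOLLIP-AS1 (chr11:1309624-1309799, plus strand), TPT1-AS1 (chr13:45341254-45341375, plus strand) and TRIM52-AS1 (chr5:181261120-181261199, plus strand). Their sense genes encode a secretory carrier membrane protein, a signal recognition particle subunit, a Toll pathway adaptor, the translationally controlled tumour protein and a tripartite motif protein.
SCAMP1-AS1: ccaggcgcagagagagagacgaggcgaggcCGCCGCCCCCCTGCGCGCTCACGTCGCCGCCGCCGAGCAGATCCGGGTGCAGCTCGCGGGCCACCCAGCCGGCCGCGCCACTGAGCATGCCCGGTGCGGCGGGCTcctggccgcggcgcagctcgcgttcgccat
SRP14-AS1: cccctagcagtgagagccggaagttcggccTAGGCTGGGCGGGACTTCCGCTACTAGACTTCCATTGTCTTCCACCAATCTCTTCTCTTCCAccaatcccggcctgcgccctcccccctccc
TOLLIP-AS1: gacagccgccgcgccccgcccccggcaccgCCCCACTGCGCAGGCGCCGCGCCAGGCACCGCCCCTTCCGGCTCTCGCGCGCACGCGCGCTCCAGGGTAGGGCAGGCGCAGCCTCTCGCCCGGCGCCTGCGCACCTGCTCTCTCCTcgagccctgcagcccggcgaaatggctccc
TPT1-AS1: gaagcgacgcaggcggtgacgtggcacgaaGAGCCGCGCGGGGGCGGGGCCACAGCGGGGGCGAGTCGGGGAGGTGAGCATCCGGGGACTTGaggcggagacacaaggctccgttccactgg
TRIM52-AS1: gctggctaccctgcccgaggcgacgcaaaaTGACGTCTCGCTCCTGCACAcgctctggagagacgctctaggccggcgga

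In the last 2 the genes were called in opposite directions. UBA6-AS1 (chr4:67701125-67701239, plus strand) was lower and its sense gene higher, and ZNF561-AS1 (chr19:9621206-9621279, plus strand) was higher and its sense gene lower. UBA6 encodes an activating enzyme of ubiquitin and ZNF561 a zinc finger protein.
UBA6-AS1: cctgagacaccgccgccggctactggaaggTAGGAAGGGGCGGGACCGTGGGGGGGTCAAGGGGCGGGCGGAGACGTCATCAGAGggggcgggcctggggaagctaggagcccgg
ZNF561-AS1: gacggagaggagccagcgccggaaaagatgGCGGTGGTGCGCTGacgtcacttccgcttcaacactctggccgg

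The starts are 13 bases apart at ZNF561-AS1 and 115 bases apart at TOLLIP-AS1, the least and the most of the 9, and GC content ran from 62.3% at SRP14-AS1 to 79.5% at TOLLIP-AS1. RefSeq promoter windows on hg38, from 250 bases before to 50 after a gene's start, were given for 101 members, 33 of them head-to-head. Searched on both strands, the GC box GGGCGG stood in 62.4% of the members' windows and 45.0% of all 35116 windows. CCGGAAG, the core bound by ETS factors, stood in 18.8% and 10.3%, and TATAAA in 3.96% and 11.5%. CCAAT stood in 34.7% and 34.6%, and the E-box CACGTG in 9.90% and 7.26%. No motif searched contains another. Head-to-head windows had a median GC content of 68.0%, against 58.7% for all windows. The members had to reach 300 reads, while the 35116 windows had no such limit. What this limit adds to the contrasts was not tested.

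Antisense RNAs moved in both directions. At an edgeR adjusted p below 0.05, 46 of the 158 were higher and 55 lower in POGK cells and 57 were not called, so that 63.9% were called where 66.0% of all 15889 genes tested were. All 158 passed the filter on low counts. Among the 133 that reach the limit at the level of either group, 36 were higher and 46 lower. Called genes of the whole table split into 32.7% of those tested higher and 33.3% lower, close to the 29.1% and 34.8% of the members. The median log2 fold change of the members was -0.06, with quartiles at -0.55 and 0.52, and that of all genes tested was 0.0025. With library size alone as scaling, the median of all genes moved by 0.19 on the log2 scale and the members split into 51 higher and 38 lower, so every direction given is relative to TMM scaling, and changes near that size flip with it.

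POGK libraries lay wholly above control for 51 members and wholly below for 61, where 73.7% of all genes tested had groups apart, 36.8% in each direction. The size of change was ordinary too. The median absolute log2 fold change was 0.54 for the members and 0.52 for all genes, and 29 members, or 18.4%, were both called and at least 2-fold changed, against 22.3% of all genes tested. Other long noncoding RNA genes with at least 300 reads, 532 in number, had 143 higher and 188 lower, or 62.2% called. Members took 0.121, 0.134 and 0.140% of all raw counts in control libraries and 0.146, 0.149 and 0.148% in POGK libraries. An exact two-sided permutation test of 3 against 3 gave p = 0.1, the smallest it allows. These shares are not TMM-scaled. TMM factors were 0.885 to 0.963 in control and 1.06 to 1.07 in POGK libraries. Scaling would raise the control shares and lower the POGK shares, so far that the groups overlap. The sum also holds the 16 members admitted only through POGK and the 9 only through control libraries. The test therefore cannot show a rise of antisense RNAs.

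**Figure D1:**
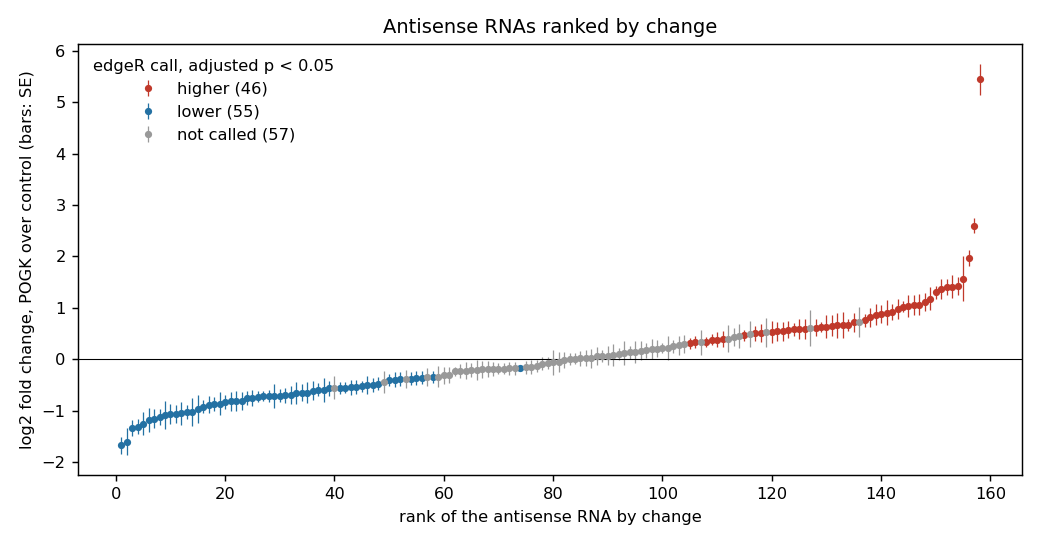
The 158 antisense RNAs are ranked along the x axis by log2 fold change (POGK over control), with bars for the standard error and colours for the edgeR call. Values run from -1.67 to 5.44, with 55 lower, 57 not called and 46 higher.

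The largest increase was that of CELF2-AS1 (ENSG00000181800; hg38 chromosome 10, minus strand), named after an RNA-binding splicing regulator. Its counts were 2, 4 and 1 in control and 130, 126 and 120 in POGK libraries. In CPM these are 0.0805, 0.128 and 0.0337 against 3.63, 3.48 and 4.05, so every POGK library lay far above every control library. The log2 fold change was 5.44 ± 0.30 (SE) at an edgeR adjusted p of 3.99e-06, and the small control counts limit its precision. With 7 reads in all in control, it is a member only through its POGK libraries, so its place at the top follows in part from the choice of members. The same holds for NECTIN3-AS1, UGDH-AS1, PTPRG-AS1 and ATP2A1-AS1 among the 10 largest rises. No exonic base of it lies under an exon of another gene, and CELF2 itself was not analysed here.

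NECTIN3-AS1 came next, opposite the gene of the cell adhesion protein nectin 3. It had 1.25, 1.28 and 1.38 CPM in control and 7.21, 8.10 and 8.50 CPM in POGK libraries, a 6.07-fold rise (edgeR adjusted p 3.99e-06). NECTIN3 had 29.5, 35.9 and 32.3 CPM against 31.8, 32.6 and 32.4, with overlapping groups, a log2 fold change of -0.01 and an adjusted p of 0.892, and its sign turned to 0.18 with library size alone. The difference between antisense and sense change was 2.60 ± 0.20 on the log2 scale, the largest of all members in size, and it was called by limma at an adjusted p of 4.81e-07.

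In UGDH-AS1, by contrast, the sense gene moved as well. UGDH encodes the dehydrogenase that makes UDP-glucuronic acid. The antisense RNA had 1.45, 1.92 and 1.41 CPM in control and 6.60, 6.0 and 6.28 CPM in POGK libraries. UGDH had 52.4, 53.4 and 56.2 CPM against 177, 165 and 160. Neither overlapped between the groups, and they rose 3.92-fold and 3.10-fold. The difference of 0.34 was not called (limma adjusted p 0.154), but it was 0.50 and called at 0.0495 without control replicate 2.

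Of the remaining 7 largest increases, 3 came with a called rise of the sense gene. TMPO-AS1 rose 2.66-fold and TMPO, which encodes lamina-associated proteins of the nuclear envelope, 1.85-fold. MCM3AP-AS1 rose 2.26-fold and MCM3AP, a factor of mRNA export, 1.80-fold. GATA2-AS1 rose 2.47-fold and GATA2, a transcription factor, 1.33-fold. The differences between the changes were 0.55, 0.34 and 0.89, and those of TMPO-AS1 and GATA2-AS1 were called, at adjusted p of 0.0179 and 0.000886. The call for TMPO-AS1 was lost without control replicate 1 or POGK replicate 2 or 3, at limma adjusted p from 0.0558 to 0.0929.

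ELFN1-AS1 rose 2.97-fold, with uneven control libraries at 1.53, 6.89 and 2.12 CPM against 10.8, 10.8 and 10.4 CPM. Control replicate 2 lay nearest to the POGK libraries, and the log2 fold change of 1.57 was 2.53 without it. Without control replicate 3 it was 1.30 and not called, at an edgeR adjusted p of 0.0567. ELFN1, a synaptic adhesion gene, stayed below 0.64 CPM in each library, with a log2 fold change of -0.14 (edgeR adjusted p 0.755) that was 0.05 with library size alone.

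ATP2A1-AS1 rose 2.58-fold, opposite the gene of a sarcoplasmic calcium pump that had a log2 fold change of 0.32 and was not called (edgeR adjusted p 0.421). Without control replicate 3 that gene was called at 0.91, and the difference between the changes fell from 0.88 to 0.45 and was not called, at a limma adjusted p of 0.287. That call was also lost without POGK replicate 1 or 3, at 0.126 and 0.159. Of the exonic bases of ATP2A1-AS1, 49.1% lie under exons of the other strand, so reads of this pair may be mixed if counting ignored strand. PTPRG-AS1 and EMC3-AS1 rose 2.70-fold and 2.65-fold while their sense genes were called lower, and they are described with the opposite pairs.

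The largest decreases began with DICER1-AS1, whose sense gene encodes the ribonuclease that cuts double-stranded RNA into small RNAs. It had 7.41, 5.87 and 8.32 CPM in control and 2.15, 2.46 and 2.16 CPM in POGK libraries, a 3.18-fold fall (edgeR adjusted p 4.70e-05). KCNMB2-AS1, which reached the limit only through its control libraries, fell 3.03-fold, from 3.26, 2.71 and 3.27 CPM to 1.45, 0.691 and 0.877 CPM, and its sense gene was not analysed here. ZSCAN16-AS1 fell 2.52-fold, from 11.1 ± 2.03 to 4.40 ± 0.20 CPM (SD, n = 3 each). Its zinc finger partner ZSCAN16 had a log2 fold change of 0.05 (edgeR adjusted p 0.808), which lay between -0.04 and 0.11 with 1 library left out.

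In 2 of the 10 largest decreases the sense gene fell too, and their differences were not called. HLA-F-AS1 had 9.94, 7.72 and 10.9 CPM in control and 4.84, 3.87 and 4.39 CPM in POGK libraries. HLA-F, a non-classical class I gene, had 83.3, 59.0 and 71.6 CPM against 32.5, 28.8 and 29.6. The falls were 2.18-fold and 2.35-fold, with a difference of 0.10 (limma adjusted p 0.604). EML2-AS1 fell 2.38-fold and EML2, a microtubule-associated protein gene, 1.82-fold. Of the exonic bases of EML2-AS1, 95.0% lie under exons of other genes on either strand, so its reads may be mixed with theirs. The share under EML2 itself is not given here.

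The 6 members with the highest mean levels had log2 fold changes between -0.71 and 0.76. OIP5-AS1 had 172, 169 and 179 CPM in control and 155, 154 and 156 CPM in POGK libraries. It was called lower with a log2 fold change of -0.16 (edgeR adjusted p 0.0424). That call was lost with DESeq2, without a filter and when control replicate 3 or any POGK replicate was left out, at adjusted p from 0.0602 to 0.163, and the value turned to 0.03 with library size alone. OIP5, a centromere assembly factor, rose 2.31-fold, from 4.51, 8.84 and 7.75 CPM to 16.4, 16.9 and 15.8 CPM.

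FGD5-AS1 rose 1.69-fold, from 67.7 ± 12.2 to 115 ± 1.88 CPM (SD, n = 3 each). SLC9A3-AS1 fell 1.46-fold, from 93.1 ± 12.8 to 63.7 ± 2.05 CPM, and MSC-AS1 fell 1.64-fold, from 45.6 ± 6.0 to 27.8 ± 0.33 CPM. GABPB1-AS1 was uneven in control libraries, at 48.8, 55.4 and 89.5 CPM against 54.7, 55.8 and 58.2, and was not called. Its partner GABPB1, a subunit of an ETS-family factor, rose 2.06-fold, and the difference of -1.27 was called (limma adjusted p 0.0104). Without control replicate 3 that difference was -0.81, and without control replicate 1 it was not called, at 0.164. THAP9-AS1 just missed the threshold (edgeR adjusted p 0.0548), but passed with DESeq2-style size factors at 0.0436, with a filter of 1 CPM at 0.0427 and without control replicate 1 at 0.0047.

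For 136 members the sense gene was also tested, which gave 135 distinct sense genes, since PAXIP1 has 2 antisense RNAs. Of these sense genes 46 were higher, 55 lower and 34 not called, with a median log2 fold change of -0.02. That is 74.8% called, where 66.0% of all genes tested were, 32.7% higher and 33.3% lower. With library size alone 53 were higher and 32 lower. The 136 pairs fell into 14 with both genes higher, 24 with both lower and 30 called in opposite directions. In 20 pairs the antisense RNA alone was called, in 34 the sense gene alone, and in 14 neither. The sign of the log2 fold change was shared by 71 of 136 pairs. Whether these classes differ from what unlinked calls of antisense and sense would give was not tested. Leaving out any 1 POGK replicate gave 17 to 19 opposite pairs in place of 30, and 15 pairs with both lower without POGK replicate 2. Without members that reached the limit through 1 group alone, 13 pairs had both genes higher, 19 both lower and 24 opposite calls.

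Across the 136 pairs, the log2 fold changes of antisense and sense had a Pearson r of 0.11 and a Spearman rho of 0.11. These points share the 6 libraries and may share reads. The same description gave an r of 0.17 and a rho of 0.12 over 1047 head-to-head pairs of protein-coding genes. The 53 head-to-head pairs of members had an r of 0.22 and a rho of 0.20. Over 60 pairs of a gene and the divergent transcript named after it with -DT, r was 0.32. With both totals at 1000 reads or more, 52 pairs had an r of 0.28.

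**Figure D2:**
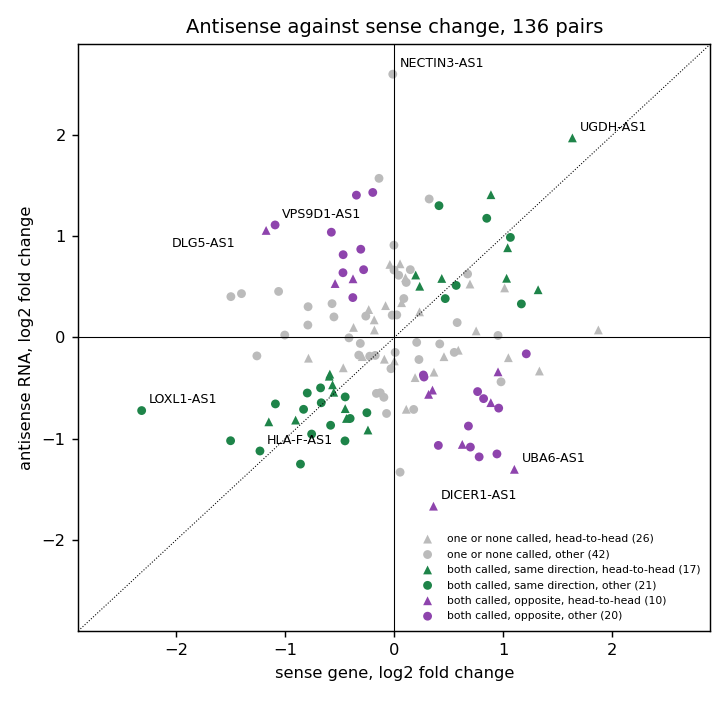
Each of the 136 pairs is a point at the log2 fold change of the sense gene (x axis) and of the antisense RNA (y axis), with triangles for head-to-head pairs. Green points are 38 pairs called in the same direction, purple points 30 pairs called in opposite directions, and the dotted line marks equal change.

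The difference between the antisense and the sense change was tested directly, from the ratio of the pair within each library, which does not depend on library scaling. Of the 136 pairs, limma called 37 with the antisense RNA gaining on the sense gene and 38 with it losing, or 55.1%. Over all 378 pairs of names tested this way, which include these 136, 51.3% were called, 28.8% as gaining and 22.5% as losing. The counts for the 136 also hold members that reached the limit through 1 group alone, whose differences carry that selection. The median absolute difference was 0.58 on the log2 scale. Without POGK replicate 2 or 3, 24 pairs were called as gaining in place of 37.

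Among the pairs called in opposite directions, UBA6-AS1 had the largest difference. In UBA6-AS1, whose start region is printed above, the antisense RNA had 22.5, 20.4 and 15.7 CPM in control and 7.83, 7.77 and 8.10 CPM in POGK libraries. UBA6 had 43.3, 66.6 and 61.1 CPM against 117, 124 and 126. All control libraries were above the POGK libraries for the antisense RNA and below them for the sense gene. The antisense RNA fell 2.47-fold, the sense gene rose 2.14-fold, and the difference was -2.40 ± 0.21 (limma adjusted p 7.87e-07).

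VPS9D1-AS1 and DLG5-AS1 went the other way. VPS9D1-AS1 had 8.09, 13.9 and 9.33 CPM in control and 21.6, 23.0 and 23.5 CPM in POGK libraries. VPS9D1, a VPS9-domain gene, had 5.07, 6.0 and 6.33 CPM against 2.88, 2.74 and 2.53. The groups did not overlap for either, with a 2.16-fold rise of the antisense RNA, a 2.14-fold fall of the sense gene and a difference of 2.23 ± 0.21 (limma adjusted p 1.17e-06).

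DLG5-AS1, a member only through its POGK libraries, had 1.05, 1.60 and 1.52 CPM in control and 2.60, 3.18 and 2.97 CPM in POGK libraries. DLG5, a scaffold of cell polarity, fell from 631, 543 and 673 CPM to 274, 270 and 272 CPM. The antisense RNA rose 2.08-fold while DLG5 fell 2.26-fold, and the difference was 2.23 ± 0.23 (limma adjusted p 2.98e-06). The pair is head-to-head, its starts are 617 bases apart, and DLG5-AS1 shares no exonic base with another gene.

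CCDC18-AS1 had 13.6, 14.7 and 22.5 CPM in control and 7.88, 7.46 and 7.52 CPM in POGK libraries. CCDC18, a coiled-coil protein gene, had 5.92, 11.8 and 8.42 CPM against 16.7, 17.3 and 16.4. Neither overlapped, the difference was -2.10 ± 0.23 (limma adjusted p 4.34e-06), and control libraries were far less even than POGK libraries. PLS3-AS1, a member only through its control libraries, fell 2.27-fold, from 2.60 ± 0.64 to 1.14 ± 0.15 CPM (SD, n = 3 each), while PLS3, an actin-bundling plastin, rose from 231 ± 10.4 to 397 ± 1.25 CPM. KIF9-AS1 fell 2.12-fold and KIF9, a kinesin gene, rose 1.62-fold. The differences were -1.93 and -1.76.

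In DICER1-AS1, the difference of -2.02 ± 0.18 was called at a limma adjusted p of 1.04e-06. DICER1 had 38.2, 41.2 and 54.8 CPM in control and 57.6, 58.8 and 55.8 CPM in POGK libraries. Its 1.28-fold rise passed at an edgeR adjusted p of 0.0307 and was lost in each fit with 1 library left out except control replicate 3, at 0.0558 to 0.0833. The pair is head-to-head, and 80 exonic bases of DICER1-AS1, 1.52% of them, lie under another gene.

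EMC3-AS1 had 4.07, 5.94 and 4.28 CPM in control and 13.3, 12.4 and 12.3 CPM in POGK libraries. EMC3, a subunit of a membrane insertase of the endoplasmic reticulum, had 70.0, 56.0 and 63.5 CPM against 48.7, 49.8 and 50.3. The difference was 1.76 ± 0.19 (limma adjusted p 4.16e-06), but the fall of EMC3 was not called with library size alone, at a log2 fold change of -0.15 and an adjusted p of 0.121. PTPRG, a receptor tyrosine phosphatase gene, fell 1.15-fold opposite PTPRG-AS1. This was lost with DESeq2 at 0.0506, with library size alone at 0.953 and without any 1 POGK replicate at 0.0569 to 0.129.

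KMT2E-AS1 fell 2.10-fold, from 11.8, 7.31 and 7.71 CPM to 4.67, 3.93 and 4.12 CPM, and KMT2E, a chromatin regulator gene, rose 1.32-fold. Near the limit of 300 reads, where the members PTOV1-AS2, KCTD21-AS1 and SLC25A21-AS1 were admitted only through their POGK libraries, PTOV1-AS2 rose 2.06-fold while PTOV1 fell 1.49-fold. KCTD21-AS1 rose 1.83-fold while KCTD21 fell 1.24-fold, a fall lost with library size alone and without control replicate 3 or any POGK replicate, at edgeR adjusted p from 0.0644 to 0.401. SLC25A21-AS1 was not called, at a log2 fold change of 0.49, and SLC25A21, a mitochondrial carrier gene, rose 2.02-fold. The latter was lost without control replicate 3 or any POGK replicate, at 0.0549 to 0.0847, and the former was called at 0.0397 without control replicate 2. SDCBP2-AS1, admitted in the same way, was not called either (0.40), while SDCBP2, the gene of syntenin 2, fell 2.83-fold, and the difference of 1.96 ± 0.35 was called (limma adjusted p 0.000346).

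**Figure D3:**
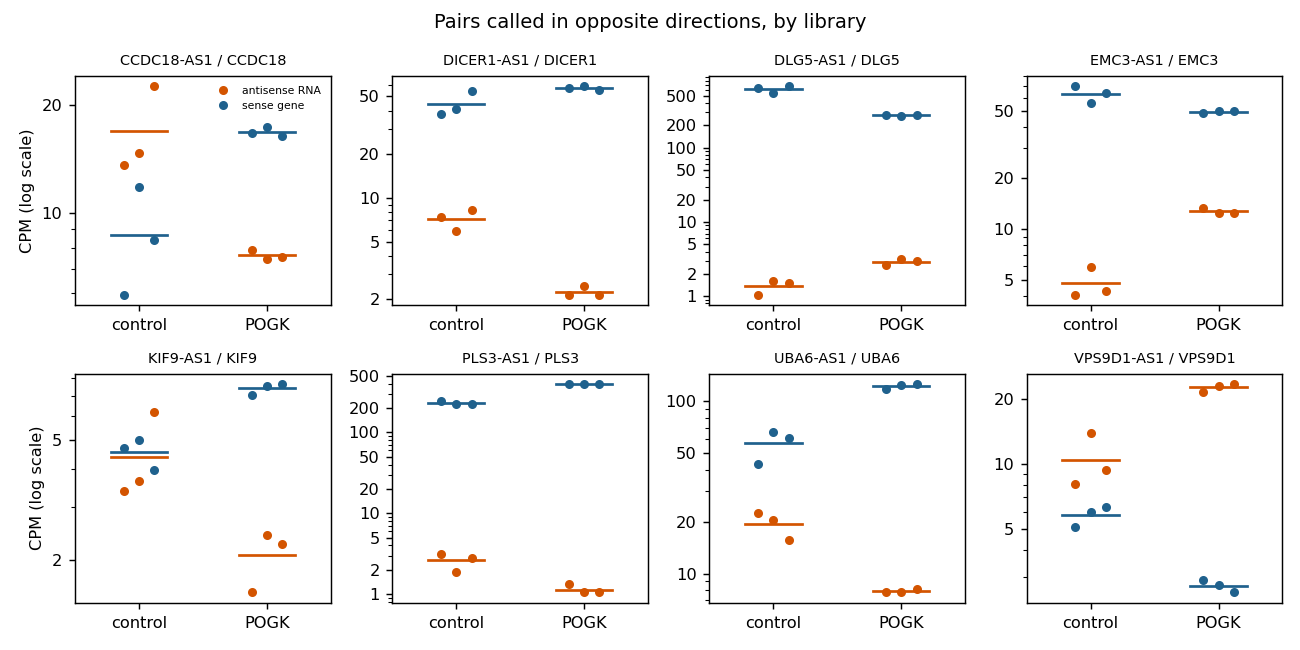
Levels in CPM on log axes are shown for the 8 pairs called in opposite directions with the largest differences, with 1 point per library, antisense RNA in orange, sense gene in blue and bars at the group means. In each panel the antisense points and the sense points separate control from POGK libraries in opposite directions, and levels of the genes of a pair are not scaled to length.

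Of the pairs called in the same direction, those of LOXL1, VIM, TPT1, IRF1, TOLLIP and RNASEH1 were picked after their values were seen. LOXL1 had the largest fall of all sense genes. This lysyl oxidase of elastic fibres had 42.5, 38.0 and 49.4 CPM in control and 9.25, 8.24 and 8.50 CPM in POGK libraries, a 4.99-fold fall. LOXL1-AS1 fell 1.65-fold, from 21.3 ± 2.17 to 12.9 ± 0.43 CPM (SD, n = 3 each), so that the antisense RNA gained on the sense gene by 1.59 (limma adjusted p 1.59e-06).

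VIM-AS1 and VIM, the gene of the intermediate filament vimentin, fell by similar amounts, 1.64-fold and 1.78-fold, and their difference of 0.12 was not called (limma adjusted p 0.465). TPT1-AS1 and TPT1 fell 1.78-fold and 2.22-fold, with a difference of 0.31 (adjusted p 0.117). IRF1-AS1, a member only through its control libraries, and IRF1, an interferon-responsive transcription factor, fell 2.03-fold and 2.83-fold, with a difference of 0.45 (adjusted p 0.117). TOLLIP-AS1 and TOLLIP, whose start region is printed above, fell 1.76-fold and 1.87-fold. RNASEH1-AS1 and RNASEH1 rose 1.85-fold and 2.05-fold.

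By arrangement, 53 head-to-head pairs held 8 with both genes higher, 9 with both lower and 10 opposite, with a Pearson r of 0.22. Of the 79 tested overlapping pairs, 6 were higher and 14 lower in both genes and 20 opposite, with an r of 0.05. The median absolute difference was 0.54 in head-to-head pairs and 0.68 in overlapping pairs. Whether the arrangements differ was not tested. When the nearest annotated transcript starts were used instead of the gene ends, 91 pairs within 1000 bases had an r of 0.14 and 45 other pairs 0.06.

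**Figure D4:**
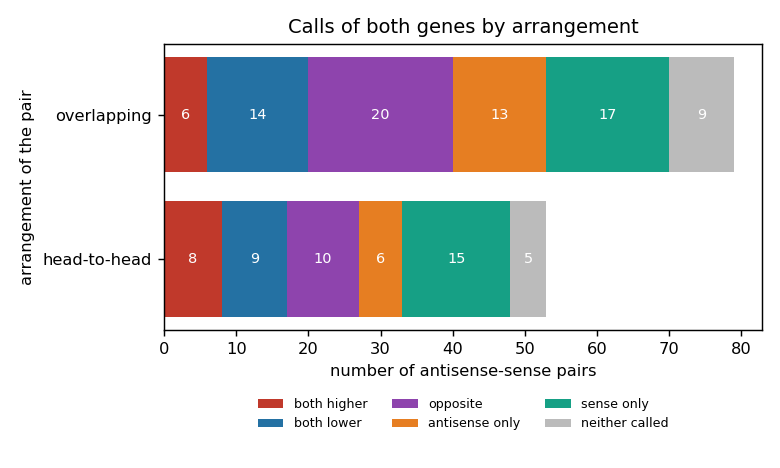
Bars count the pairs of each arrangement by the edgeR calls of both genes. Of 53 head-to-head pairs 17 moved together and 10 in opposite directions, and of 79 overlapping pairs 20 moved together and 20 in opposite directions.

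**Figure D5:**
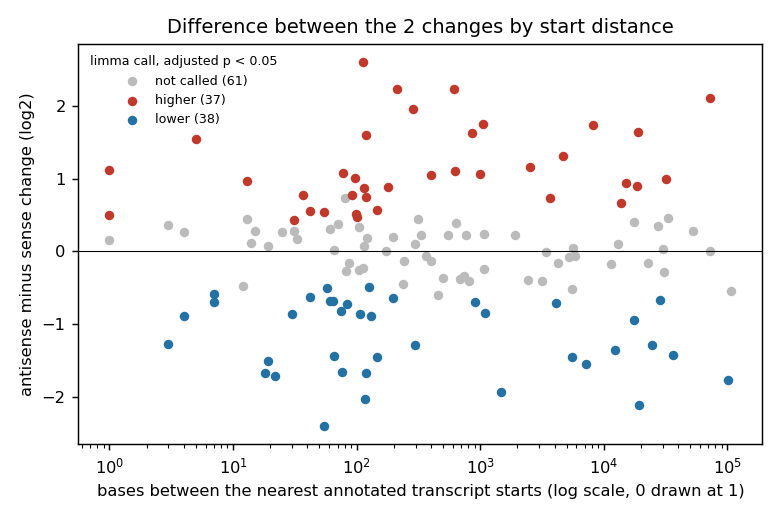
The difference between the antisense and the sense change (y axis, log2) is plotted against the distance between the nearest annotated transcript starts (x axis, log scale, bases) for 136 pairs. Called differences in both directions, 37 higher and 38 lower, appear from starts that coincide to starts far apart.

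Reads of a pair can be mixed where exons overlap, because the strand setting of the counting is not given in the sources used here. Of the 136 pairs, 104 share exonic bases with the sense gene, and these had a Pearson r of 0.13 against 0.06 for the 32 that share none, while Spearman's rho ran the other way, at 0.087 against 0.21. A median of 10.9% of a member's exonic bases lay under exons of another gene, and 11 members had at least 50% there. The counts alone do not settle the strand setting. Low counts in covered rows could also arise if reads lying on both genes were dropped in counting. In all, 65 rows have every exonic base under exons of the other strand, and for the 38 of them opposite a gene of at least 10000 counts the count was a median of 0.200% of that gene's count (0.0150 to 7.42%). No row of the table has fewer than 21 reads, so covered genes with less are missing and this median may be too high. Of the members described above, SDCBP2-AS1 had a total of 0.599% and VIM-AS1 of 0.283% of the count of the gene on the other strand, so a small share of reads from that strand could make up much of their counts. Among the 25 members with no exonic base under another gene, 8 were higher and 9 lower.

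Genes that can act on antisense transcripts, and act on other RNAs as well, were mostly higher, beside a background of 32.7% higher and 33.3% lower over all genes. The list of the nuclear RNA exosome and its cofactors held 13 genes, of which 11 rose, 1 fell and 1 missed the threshold. Its median was 0.76 on the log2 scale. EXOSC9, a core subunit, had a log2 fold change of 1.12 ± 0.09 (edgeR adjusted p 1.61e-05). The cofactor MPHOSPH6 rose from 7.28 ± 1.96 to 20.2 ± 0.89 CPM and the cap subunit EXOSC3 from 15.3 ± 2.50 to 31.5 ± 1.86 CPM (SD, n = 3 each). EXOSC5 fell, with a log2 fold change of -0.32. It is named for being the single fall, and this fall was lost with library size alone and in each fit with 1 library left out except control replicate 3.

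A further list held 18 genes that target transcripts to the exosome, bind nascent caps or serve the HUSH silencing complex. Of these, 11 rose, 2 fell and 5 missed the threshold. SRRT, the cap-binding partner ARS2, rose from 60.2 ± 5.79 to 141 ± 3.93 CPM (SD, n = 3 each; edgeR adjusted p 8.08e-06). NCBP3, a cap-binding protein, and MORC2, an ATPase that works with the HUSH silencing complex, rose with log2 fold changes of 0.79 and 0.69. The falls, RBM7 at -0.23 and PABPN1 at -0.38, were named for being the only ones, and 1 fall was left with library size alone and in each fit without a POGK replicate. Of 30 genes that end noncoding transcription, many of which also serve coding genes, 19 rose, 1 fell and 10 missed the threshold. The rises were 1.70 for CSTF2 and 1.17 for CSTF3, both of the cleavage stimulation factor, and 0.70 for INTS2 of the Integrator complex (log2). The fall was that of INTS3 at -0.35, and it was not called with library size alone or without POGK replicate 1.

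Double-stranded RNA genes were mixed, with 15 of 26 higher, 6 lower and 5 not called. OAS2, a sensor that makes oligoadenylates, rose from 2.62 ± 0.16 to 10.04 ± 1.27 CPM (SD, n = 3 each), and ILF2, a double-stranded RNA binding factor, rose with a log2 fold change of 0.80. ADARB1, an editing enzyme, fell from 161 ± 8.40 to 95.1 ± 0.88 CPM (edgeR adjusted p 2.39e-05). The number of falls was 3 with library size alone and without POGK replicate 2.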

How the data were processed

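RNA from 6 libraries (3 control, 3 POGK, grouped by their labels) was sequenced and aligned to hg38, per the labels' protocols. Tools named in the submitters' processing notes are featureCounts, STAR, Trimmomatic, SAMtools and deepTools. Annotation and strand setting of the counting: not given in the sources used here. Raw counts of 18398 genes were deposited in 1 column per library, per the file headers, and the lowest row total was 21 reads. Beside these, the authors deposited signal values per library (counts divided by a size factor), log2 fold changes, a test score and p-values, in which 44 members were higher and 51 lower in the authors' deposited table, and 95 were called there and here in the same direction.

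All tests used the counts as deposited, over the whole table. edgeR 4.0.16 in R 4.3.3 ran its quasi-likelihood test with TMM scaling, the default low-count filter and Benjamini-Hochberg adjustment over 15889 genes, and calls were made at an adjusted p below 0.05. Standard errors came from the test's F statistic. CPM used TMM-scaled library sizes. Antisense minus sense differences were tested with limma 3.58.1 on voom log2 ratios within each library, adjusted over 378 name pairs. Positions came from GENCODE release 44 on hg38, which matched 18264 identifiers. The scripts were tested on simulated data. Between libraries of 1 group a chi-square per gene was 1.36 to 2.62 in POGK and 22.5 to 49.7 in control. Control libraries thus differed far more from each other than POGK libraries did. All 6 were kept, and the fit pools this uneven spread.

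The members and gene lists were chosen with earlier results of these data known. Named genes were the 10 called members with the largest rise and the 10 with the largest fall among those with groups apart, the 6 with the highest mean CPM, the 10 called pairs with the largest difference, the 8 opposite pairs with the largest difference, their sense genes, the 3 genes of each list with the smallest adjusted p, the 3 members above and 3 rows below the limit, and POGK. Alternatives were DESeq2 1.42.0, limma-voom, other scalings and filters, a limit of 1000 reads, members without exonic overlap, unweighted limma, the replicate block and each library left out. Leaving out members that reach the limit through 1 group alone was added after seeing the data.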

Additional observations from a re-analysis of the deposited data

How the results depend on the processing

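Limits: 3 libraries a group, an unknown strand setting, and low counts for many members. Of 1246 values of named genes and differences under an alternative, 1180 kept direction and call, 36 lost the call, 9 gained it and 21 changed sign, among genes near 0. The 1180 include 29 differences of DESeq2 fold changes, which carry no call and were judged by direction alone. With library size alone, the values were 0.048 for ELFN1, 0.18 for NECTIN3, 0.031 for OIP5-AS1, 0.065 for SLC9A3 and 0.19 for THAP9, the sense genes that fell numbered 32, pairs with both lower 12, opposite pairs 19, the medians became 0.13 for members and 0.18 for sense genes, and list members that fell numbered 0 (exosome), 1 (targeting), 0 (termination) and 3 (double-stranded RNA). THAP9, at -0.00066, was 0.0033 with DESeq2, 0.0010 with limma-voom, 0.0070 without a filter and 0.0030 with the replicate block. With 1 library left out, ELFN1 lay between -0.37 and 0.19, GABPB1-AS1 between -0.36 and 0.11, NECTIN3 between -0.077 and 0.063, SLC9A3 between -0.29 and 0.054, THAP9 between -0.081 and 0.11 and ZSCAN16 between -0.042 and 0.11. In the same fits, pairs with both lower numbered 15 to 23, opposite pairs 17 to 29, differences called as gaining 24 to 40, the median of members lay between -0.090 and -0.037, and list falls were 0 to 1 (exosome), 1 to 3 (targeting), 0 to 1 (termination) and 3 to 7 (double-stranded RNA). A limit of 1000 reads, which leaves fewer members, gave 24 higher, 28 lower, 13 pairs with both lower, 12 opposite, a median of -0.11, an r of 0.21 and a rho of 0.24. Members with no exonic overlap gave 8 higher, 9 lower, 2 pairs with both higher, 5 with both lower, 3 opposite, a median of -0.19 and a rho of 0.25. Apart from fewer genes or samples, the cause was not tested. Same-numbered libraries correlated at 0.087, 0.041 and 0.0028 in their deviations, so the numbers were not taken to pair them. The replicate block gave 46 higher, 53 lower and 27 opposite, 1 fall among the targeting genes, and lost the calls of OIP5-AS1 and KCTD21.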
